A study of Rattus norvegicus with 23 samples.

Results

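Hydrogen peroxide and superoxide are cleared in liver cells by a small set of enzymes, and 9 genes of this set were followed here: the glutathione peroxidases Gpx1, Gpx2, Gpx3 and Gpx4, catalase (Cat), the peroxiredoxins Prdx1 and Prdx6, and the superoxide dismutases Sod1 and Sod2. Each gene was read from a probe set annotated to it alone, and where several such probe sets existed, the brightest on average across the 23 samples was taken. By this rule 8 of the 9 genes were measured, of 14217 genes with a probe set of their own. Prdx1 shared its probe set with a second gene symbol, Prdx1l1, and no value is given for it. Gpx4 had 2 probe sets of its own and the other genes had 1.

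The data are 23 rat liver samples on a single-colour Affymetrix array, given as log2 values. Male Sprague Dawley rats aged 6 to 8 weeks were dosed orally each day for 5 days, and the left lateral lobe was taken 24 h after the last dose. Alpha-naphthylisothiocyanate (ANIT, 100 mg/kg), which injures bile duct cells, was compared with corn oil at 5 ml/kg, and methylenedianiline (MDA, 100 mg/kg), another bile duct toxicant, with 35% ethanol at 2 ml/kg. Acetaminophen (APAP, 1000 mg/kg), which is turned into a glutathione-consuming metabolite, was compared with corn oil at 2 ml/kg, and the anti-inflammatory drug diclofenac (DCLF, 10 mg/kg) with water at 10 ml/kg. Each group held 3 animals except water, which held 2. ANIT and MDA were each run in an in-life study of their own, and APAP and DCLF in a shared one. In the corn oil group at 5 ml/kg the sample titles open with 3 animal numbers but close with a shared number, so its count of 3 rats rests on the opening numbers.

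Superoxide dismutases turn superoxide into hydrogen peroxide: Sod1, a copper and zinc enzyme, acts in the cytosol, and Sod2, a manganese enzyme, in mitochondria. Catalase splits hydrogen peroxide inside peroxisomes, while the glutathione peroxidases reduce it, or lipid hydroperoxides, with glutathione. Peroxiredoxins do so with a reactive cysteine. Many genes that supply glutathione and thioredoxin are induced by the transcription factor NRF2 through a short DNA motif, the antioxidant response element, and Gpx2 is a known NRF2 target.

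The promoters of Gpx2 and Sod2 are printed because these were the 2 genes that passed the test against a vehicle. Each runs from 250 bases before to 50 bases after the gene start in RefSeq on assembly GRCr8, read on the gene's own strand, at chr6:101229984-101230283 (minus strand) for Gpx2 and chr1:50050119-50050418 (minus strand) for Sod2. Capitals mark the only match in each window to the core of the antioxidant response element, TGACNNNGC on either strand.
Gpx2: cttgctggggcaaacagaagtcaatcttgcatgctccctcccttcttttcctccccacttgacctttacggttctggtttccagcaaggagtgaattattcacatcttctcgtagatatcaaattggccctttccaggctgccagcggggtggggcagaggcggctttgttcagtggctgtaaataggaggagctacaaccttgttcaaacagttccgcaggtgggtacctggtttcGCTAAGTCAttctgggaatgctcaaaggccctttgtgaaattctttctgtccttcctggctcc
Sod2: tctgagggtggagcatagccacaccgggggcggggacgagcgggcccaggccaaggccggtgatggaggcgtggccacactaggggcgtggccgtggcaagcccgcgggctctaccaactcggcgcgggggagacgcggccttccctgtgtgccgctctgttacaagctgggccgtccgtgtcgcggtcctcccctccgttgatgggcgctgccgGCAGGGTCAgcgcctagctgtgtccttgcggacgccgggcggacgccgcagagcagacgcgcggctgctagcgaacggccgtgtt

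The match began 13 bases before the start of Gpx2 and 35 bases before the start of Sod2, in both on the opposite strand. Of 33469 rat promoters of 300 bases, 12.06% held such a match, so it is common. RefSeq promoters were at hand for 8 of the 9 genes (not Prdx6), and Prdx1 also held a match, while the windows of Gpx1, Gpx3, Gpx4, Cat and Sod1 held no match. The AP-1 motif TGANTCA, found in 7.33% of promoters, occurred only in the Prdx1 window, and the NF-kB motif, found in 7.51%, only in that of Gpx1. Prdx1 held 2 AP-1 matches, and the nearer of them to the gene start overlapped its antioxidant response element match, which began 135 bases before the start. A match describes the letters and no binding was measured.

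In 3 arrays of the ANIT study, the brightest signals were lower than in the other 20. Corn oil (5 ml/kg) replicate 2 and ANIT replicates 1 and 2 reached at most 14.57 to 14.97 log2 units, against 15.86 to 15.99 in the others, although array medians were alike (8.95 to 9.02). Albumin (Alb), the main secreted protein of hepatocytes, read 14.58, 14.97 and 15.95 in ANIT livers, against 15.97, 14.57 and 15.98 in corn oil livers. Gpx1, Sod1 and Cat lie near that end of the scale, with mean values above 99.6% or more of probe sets, so the ANIT changes of the 8 genes against corn oil were also taken within each of the 2 kinds of array, and these changes, their differences from other compounds and the list counts without the 3 arrays. Leaving the 3 arrays out needed a fit over all groups, since a single ANIT liver remains. The reason for the lower top level was not tested. Samples of a group correlated at 0.987 to 0.995 over all probe sets. The 9 hepatocyte markers measured were expressed in all groups, but not all were steady. With MDA, Fabp1 fell by 1.665 (SE 0.084) and Hpx rose by 0.70 (SE 0.0899), while 0 of the 9 passed with the other compounds. In a fit over all groups 1 passed as lower with ANIT. Without passing, Fabp1 differed by -0.83 with ANIT (limma adjusted p = 0.204). Apoa1 differed by -1.04 with APAP (limma adjusted p = 0.0704) and by 0.75 with MDA (0.0936), also without passing. The median marker change was -0.34 with ANIT (0.02 without the 3 arrays), -0.17 with MDA, -0.09 with APAP and -0.01 with DCLF. Their part in the results for the 8 genes was not tested.

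A gene was called when limma's Benjamini-Hochberg adjusted p over 31042 probe sets was under 0.05 and its change was over 1.5-fold. In ANIT livers 1 of the 8 genes passed, as higher, when 2.63% of all probe sets were called higher and 2.75% lower. In MDA livers 2 passed, both higher, against backgrounds of 3.24% higher and 3.78% lower. In APAP livers 0 passed, against 0.139% of all probe sets higher and 0.0709% lower. An unadjusted limma p under 0.05 was found for 5 of the 8 with ANIT, 3 with MDA and 3 with APAP. Over all probe sets the shares were 23.1%, 25.6% and 10.3%. In DCLF livers 0 passed, as did 0% of all probe sets in either direction. The methods' t-test, the 2-group test that the study itself applied, with an unadjusted p under 0.01 and the same fold, called 1, 2, 0 and 0 of the 8 genes for ANIT, MDA, APAP and DCLF. After adjustment it called 0 in each. The median log2 change of the 8 genes was 0.04 for ANIT, -0.14 for MDA, 0.08 for APAP and -0.04 for DCLF, beside -0.02, 0.00, 0.02 and -0.03 over all 14217 genes.

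**Figure D1:**
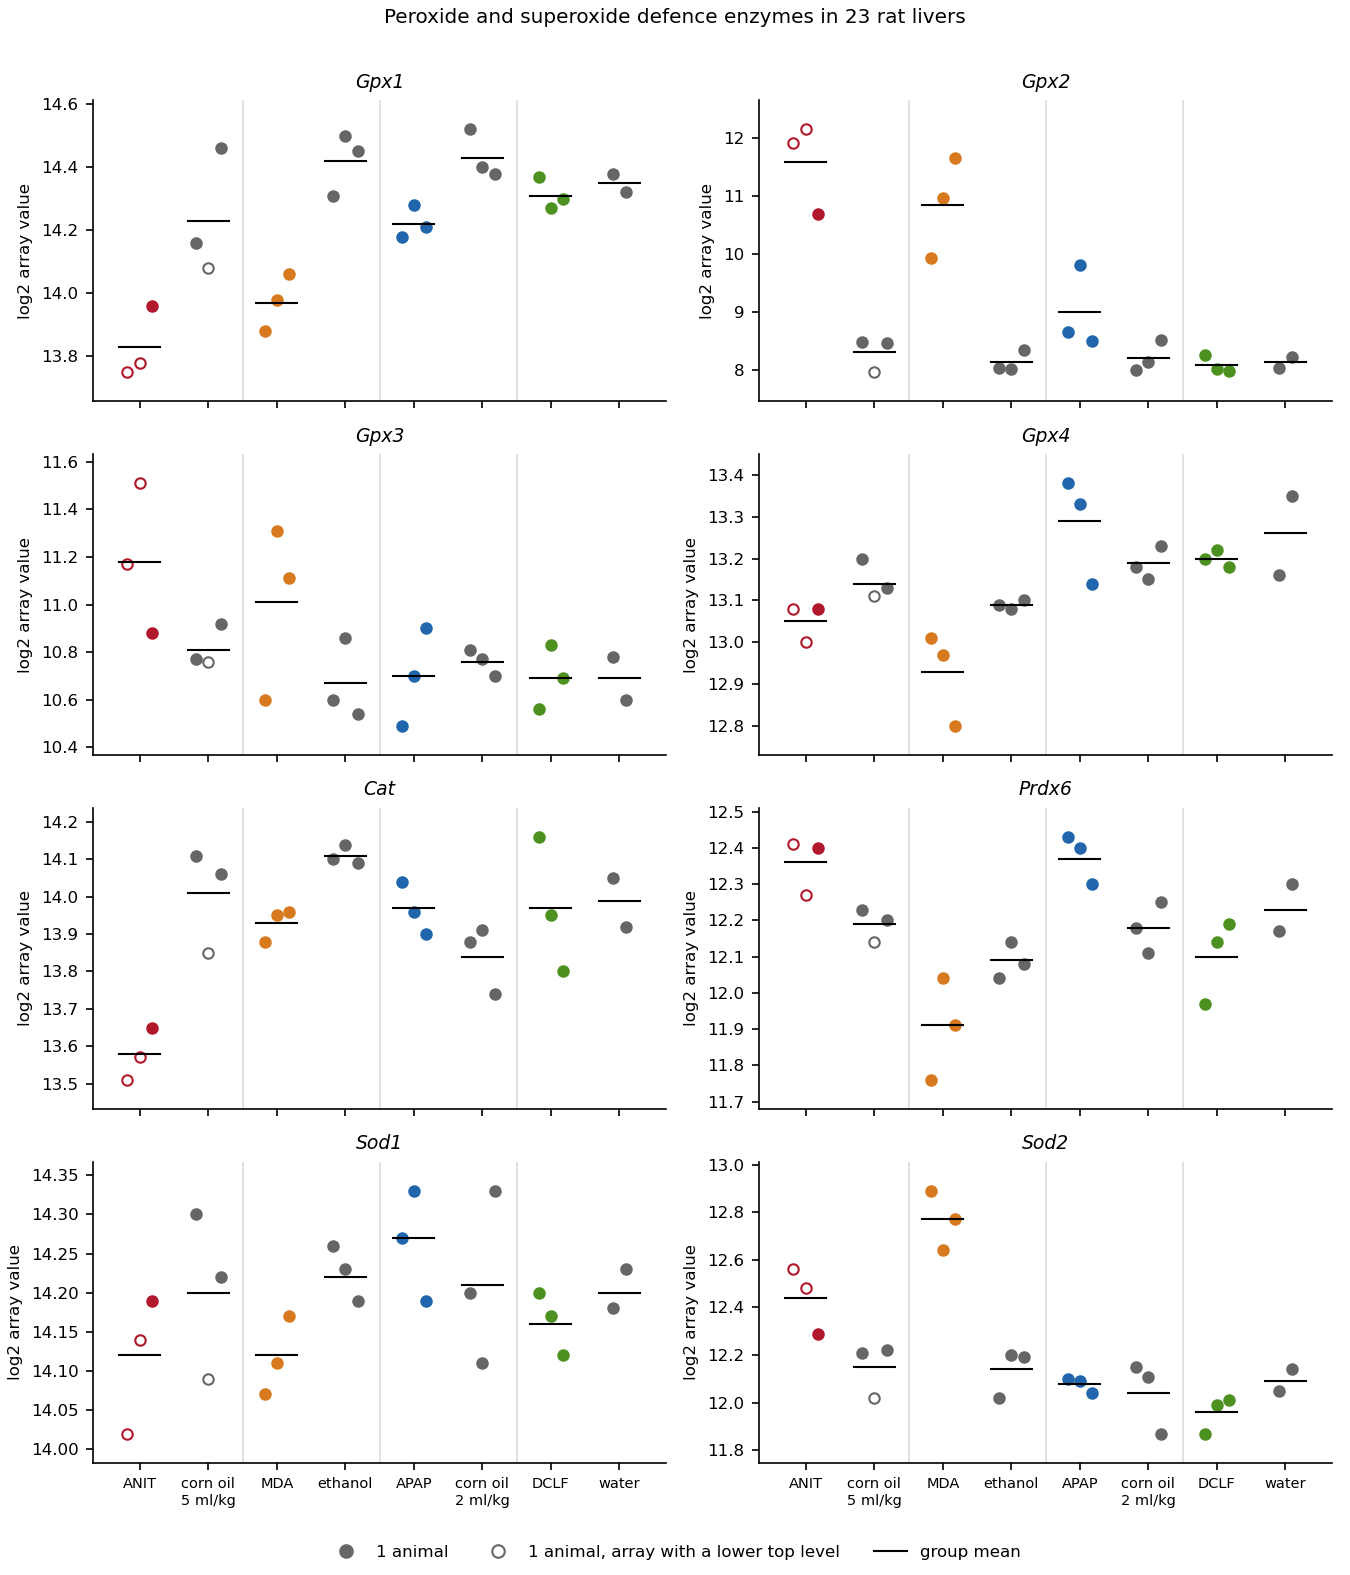
Log2 array value (y axis) of the 8 measured enzymes in each of the 23 livers, by group, with every compound left of its own vehicle. Points are animals, black lines group means and open points the 3 arrays with a lower top level; Gpx2 in ANIT and MDA livers lies between 9.93 and 12.15, above all 11 vehicle livers (7.97 to 8.52).

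Gpx2, a glutathione peroxidase best known from the gut lining, changed more than the other 7 genes in ANIT, MDA and APAP livers. Its log2 values were 11.91, 12.15 and 10.70 in ANIT livers, against 8.49, 7.97 and 8.48 in corn oil livers. All 3 ANIT animals were far above all 3 vehicle animals, and the third ANIT animal was the lowest of them. The mean difference was 3.27 (SE 0.351), a 9.66-fold rise (limma adjusted p = 0.00183, 95% interval 2.46 to 4.09, n = 3 each). In the arrays with the lower top level the difference was 4.06 (2 ANIT livers, 1 corn oil liver), and in the other arrays 2.22 (1 ANIT liver, 2 corn oil livers). Without the 3 arrays the rise still passed (2.22, adjusted p = 0.0101), in a fit over all groups that takes the single remaining ANIT liver to vary as the other groups do.

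In MDA livers Gpx2 read 9.93, 10.96 and 11.66, against 8.05, 8.03 and 8.36 in ethanol livers. The groups did not overlap, and the MDA animals spanned more than the vehicle animals did. The rise was 2.70 log2 units (SE 0.365), or 6.50-fold (limma adjusted p = 0.00286). Gpx2 read 8.66, 9.82 and 8.51 in APAP livers, against 8.0, 8.14 and 8.52 in corn oil livers. A single APAP animal stood above the rest and the groups overlapped. The difference of 0.77 (SE 0.32, interval 0.04 to 1.51) did not pass (adjusted p = 0.466), and it was 0.36 without that animal. In DCLF livers it read 8.27, 8.02 and 7.99, against 8.04 and 8.23 in water livers, and the difference was -0.04 (interval -0.31 to 0.23).

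These are whole-liver values, in which a change in the number of cells of a type and a change in RNA per cell cannot be told apart. Over all probe sets 2.63% were called higher with ANIT and 3.24% with MDA. Of 11 markers of bile duct cells, 2 passed as higher in ANIT livers and 4 in MDA livers, with 0 in APAP and DCLF livers. Their median change was 0.72 with ANIT, 0.48 with MDA, 0.02 with APAP and 0.00 with DCLF, and 0 passed as lower. In a fit over all groups 6 passed as higher with ANIT, and 2 without the 3 arrays of lower top level. The bile duct and progenitor cell surface protein Epcam read 12.04, 11.72 and 11.57 in ANIT livers, against 9.51, 9.44 and 9.88 in corn oil livers. It rose by 2.16 (SE 0.156) with ANIT and by 1.10 (SE 0.14) with MDA. The duct keratin Krt19 differed by 0.86 (adjusted p = 0.161) and 0.51 (adjusted p = 0.0541). Onecut2 differed by -0.52 and -0.53 without passing, and Spp1 by -0.01 and 0.16, in the same order. The summed level of the 11 markers was 13.55 to 13.83 log2 units in ANIT livers and 13.08 to 13.15 in their corn oil livers. It was 13.59 to 13.96 in MDA livers and 13.35 to 13.41 in ethanol livers, 13.15 to 13.25 in APAP and 13.17 to 13.24 in corn oil livers, and 13.24 to 13.34 in DCLF and 13.21 to 13.40 in water livers. Their part in the Gpx2 result was not tested.

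Gpx1, the main cytosolic glutathione peroxidase and a selenoprotein, was lower with 3 of the compounds but passed the test with none. It read 13.88, 13.98 and 14.06 in MDA livers, against 14.31, 14.50 and 14.45 in ethanol livers. All MDA animals lay below all ethanol animals, and the difference of -0.45 (SE 0.0932) had an adjusted p of 0.0175 in limma but a fold of 1.36, under the 1.5-fold threshold. In ANIT livers Gpx1 read 13.75, 13.78 and 13.96, against 14.16, 14.08 and 14.46 in corn oil livers. The groups did not overlap, with a difference of -0.41 (SE 0.116, adjusted p = 0.0683). It was -0.32 within the arrays of lower top level and -0.35 within the others. In APAP livers it read 14.18, 14.28 and 14.21, against 14.52, 14.40 and 14.38 in corn oil livers, again without overlap and with a difference of -0.21 (SE 0.0733, adjusted p = 0.383). In DCLF livers the difference was -0.04 (interval -0.23 to 0.15).

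The red cell transcript Hbb, which encodes beta-globin, was lower with the same 3 compounds. It fell by 1.35 (SE 0.124) with ANIT, by 1.04 (SE 0.198) with MDA and by 2.66 (SE 0.31) with APAP, while in DCLF livers Hbb differed by -0.22 (adjusted p = 0.79). Over all 14217 genes, 480 passed as lower with ANIT, 601 with MDA, 12 with APAP and 0 with DCLF. Of 6 erythroid markers measured, 2 passed as lower in ANIT and in MDA livers, 1 in APAP livers and 0 in DCLF livers. Their median change was -0.27 with ANIT, -0.11 with MDA, -0.05 with APAP and -0.06 with DCLF. Alas2 fell by 1.40 (SE 0.234) with ANIT and by 0.95 (SE 0.21) with MDA. The markers Slc4a1, Epb42, Ahsp and Rhag passed with no compound, and differed by -0.28 to 0.22 with ANIT, MDA and APAP. In a fit over all groups 2 passed as lower with ANIT, and 0 without the 3 arrays of lower top level, where Hbb differed by -1.21. The summed level of the 6 adds linear values, so bright markers such as Hbb weigh most in it. Hbb alone averaged 13.84 in the 2 corn oil livers (5 ml/kg) whose arrays did not have the lower top level. The summed level was 12.83 to 13.13 log2 units in ANIT livers against 13.97 to 14.36 in corn oil livers. With MDA it was 13.14 to 13.68, against 13.99 to 14.53 in ethanol livers. In APAP livers it was 11.39 to 11.86, against 12.88 to 13.77 in corn oil livers, and in DCLF livers 13.04 to 13.92, against 13.56 to 13.97 in water livers. Their part in the Gpx1 and Cat values was not tested.

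Gpx3, the secreted plasma glutathione peroxidase, varied among treated animals. It read 11.17, 11.51 and 10.88 in ANIT livers, against 10.77, 10.76 and 10.92 in corn oil livers, so the third ANIT animal lay within the vehicle range. The difference of 0.37 (SE 0.152, adjusted p = 0.195) shrank to 0.03 without the 3 arrays of lower top level. In MDA livers it read 10.60, 11.31 and 11.11, against 10.60, 10.86 and 10.54 in ethanol livers (0.34, SE 0.18, adjusted p = 0.297). Gpx4, which reduces lipid hydroperoxides within membranes, differed by -0.09 with ANIT, -0.17 with MDA, 0.10 with APAP and -0.06 with DCLF, with adjusted p-values from 0.299 to 0.819. All ANIT and all MDA animals lay below the animals of their own vehicle. The second Gpx4 probe set passed in no comparison either, and differed by -0.10 in ANIT livers. Its MDA values (9.69 to 9.91) reached into those of ethanol livers (9.81 to 10.11). Its mean was higher in DCLF than in water livers (9.97 against 9.87), the opposite sense to the first probe set.

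Catalase was lowest in ANIT livers. It read 13.51, 13.57 and 13.65 there, against 14.11, 13.85 and 14.06 in corn oil livers. The groups did not overlap. The difference of -0.43 (SE 0.0941) had an adjusted p of 0.0275 in limma, but its fold of 1.35 was under the threshold. Within the arrays of lower top level it was -0.31 and within the others -0.44, and without the 3 arrays -0.44 (adjusted p = 0.0306). In MDA livers Cat read 13.88, 13.95 and 13.96, against 14.10, 14.14 and 14.09 in ethanol livers, a difference of -0.18 (SE 0.0785, adjusted p = 0.198). It was 0.13 in APAP livers and -0.02 in DCLF livers.

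Prdx6, a peroxiredoxin that also acts on phospholipids, differed little. It read 12.41, 12.27 and 12.40 in ANIT livers, against 12.23, 12.14 and 12.20 in corn oil livers (0.17, SE 0.078, adjusted p = 0.243). In MDA livers it read 11.76, 12.04 and 11.91, against 12.04, 12.14 and 12.08 in ethanol livers (-0.18, SE 0.0966, adjusted p = 0.300). In APAP livers it read 12.43, 12.40 and 12.30, against 12.18, 12.11 and 12.25 in corn oil livers (0.19, SE 0.0751, adjusted p = 0.437). The ANIT and the APAP animals thus lay above their own vehicle animals and those given MDA reached into theirs.

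Sod2 was the other gene that rose. It read 12.89, 12.64 and 12.77 in MDA livers, against 12.02, 12.20 and 12.19 in ethanol livers. All MDA animals were above all ethanol animals. The rise was 0.63 (SE 0.0993), or 1.55-fold (limma adjusted p = 0.00528), which is close to the 1.5-fold threshold. Without ethanol replicate 1 or MDA replicate 1 the difference was 0.57, under the fold threshold, with adjusted p-values of 0.0189 and 0.0177. In ANIT livers Sod2 read 12.56, 12.48 and 12.29, against 12.21, 12.02 and 12.22 in corn oil livers, with no overlap and a difference of 0.29 (SE 0.101, adjusted p = 0.123). That difference was 0.50 within the arrays of lower top level, 0.07 within the others, and 0.07 without the 3 arrays. Sod2 differed by 0.03 in APAP livers (interval -0.17 to 0.24) and by -0.13 in DCLF livers (interval -0.34 to 0.07). All DCLF animals lay below all water animals, but narrowly (12.01 against 12.05 at the nearest), and the difference did not pass (limma adjusted p = 0.551). How many of all probe sets separate groups of this size was not counted, here or for the other genes.

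Among all 14217 genes, 697 passed as higher and 601 as lower with MDA, and 546 and 480 with ANIT. Of 13 monocyte and macrophage markers, 9 passed as higher in MDA livers (median 0.965). In ANIT livers 3 passed as higher and 1 as lower (median 0.121), and in APAP and DCLF livers 0 passed. In a fit over all groups the ANIT counts were 2 higher and 1 lower, and 0 higher and 1 lower without the 3 arrays of lower top level. Gpnmb, a glycoprotein of activated macrophages, rose by 2.04 (SE 0.184) with MDA and by 0.84 (SE 0.0981) with ANIT. The pan-leukocyte gene Ptprc rose by 1.27 (SE 0.107) with MDA. The summed level of the 13 markers was 15.28 to 15.54 in MDA livers and 14.41 to 14.58 in ethanol livers, and 14.81 to 15.15 in ANIT livers and 14.65 to 14.84 in corn oil livers. It was 14.12 to 14.85 in APAP livers and 14.04 to 14.55 in corn oil livers, and 14.18 to 14.72 in DCLF livers and 14.21 to 14.44 in water livers. Of 7 neutrophil markers, 1 passed as higher in MDA livers (Il1b, 0.90, SE 0.122), where the list median was 0.29. With the other compounds 0 passed, though 1 was higher with ANIT in a fit over all groups. The summed level of these 7 was 11.26 to 11.40 in MDA livers and 10.81 to 11.0 in ethanol livers. The part of either set of markers in the Sod2 result was not tested.

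Sod1 was the steadiest of the 8 genes across vehicles, where all 11 livers lay within 0.23 log2 units of each other, against 0.26 to 0.55 for the other genes. It differed by -0.09 with ANIT, -0.11 with MDA, 0.06 with APAP and -0.04 with DCLF, and its intervals reached no further than -0.29 and 0.25 in any of them. All MDA animals lay below all ethanol animals. With ANIT the Sod1 difference was -0.01 within the arrays of lower top level and -0.07 within the others. The Sod1 signal (mean 14.19) lies toward the top of the array scale, and whether a change there is understated was not tested. Ccs, the chaperone that loads copper into Sod1, passed in no comparison with a vehicle (-0.12 to 0.14). With DCLF the 8 genes moved by at most 0.13 in either direction, 0 of the 8 had an unadjusted p under 0.05, and their 95% intervals lay between -0.36 and 0.26. Over all probe sets DCLF gave 3885 (12.5%) with an unadjusted limma p under 0.05. The methods' t-test, run separately over all probe sets, called 32 before adjustment and 0 after it.

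**Figure D2:**
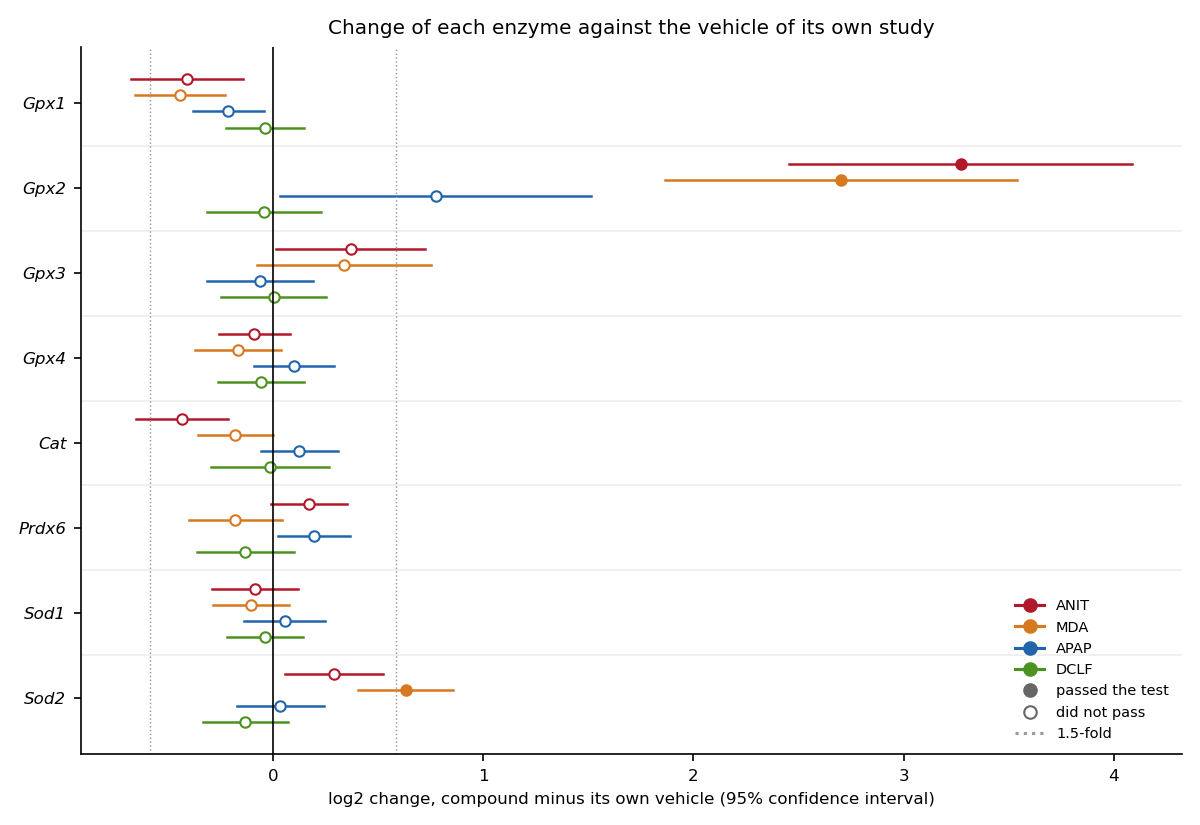
Log2 change of the 8 enzymes (rows) against the vehicle of the same study (x axis), with the 95% confidence interval from limma and a colour for each compound. Filled points passed the test and dotted lines mark 1.5-fold; these are Gpx2 with ANIT (3.27) and MDA (2.70) and Sod2 with MDA (0.63).

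Whether 2 compounds differed in their effect was tested on the difference of their changes, each taken against its own vehicle. The Gpx2 change was larger with ANIT than with APAP by 2.50 (SE 0.534, adjusted p = 0.019), and 1 of the 8 genes passed where 4.07% of all probe sets did. That call was lost without the 3 arrays of lower top level (1.44, adjusted p = 0.181) and, narrowly, without APAP replicate 1 or corn oil replicate 2 of the ANIT study (2.33 and 2.32, both adjusted p = 0.053). The Cat change was lower with ANIT than with APAP by 0.56 log2 units (SE 0.122, adjusted p = 0.0212), a 1.47-fold difference that did not reach the fold threshold. It passed without any 1 of 4 livers (corn oil replicate 2 and ANIT replicate 3 of the ANIT study, corn oil replicate 2 and APAP replicate 3 of the APAP study), with -0.64 to -0.59. MDA and APAP differed in Sod2 by 0.60 (SE 0.133, adjusted p = 0.020), 1.51-fold, with 1 of 8 genes passing against 5.09% of all probe sets. Leaving out any 1 of 5 livers took it out (corn oil replicates 1 and 2 of the APAP study, APAP replicate 3, ethanol replicate 1 and MDA replicate 1, with 0.54 to 0.58). The Gpx2 change with MDA exceeded that with APAP by 1.93 (SE 0.552, interval 0.73 to 3.13, adjusted p = 0.060), and passed without APAP replicate 2 (2.34, adjusted p = 0.0211) or MDA replicate 1 (2.39, adjusted p = 0.0127). Both of these comparisons share the APAP samples and their vehicle.

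ANIT and MDA did not differ in any of the 8 genes at this threshold (1.16% of all probe sets did). Of the 8, 3 had an unadjusted limma p under 0.05, as did 11.4% of all probe sets. For Gpx2 the difference was 0.57, with an interval from -0.67 to 1.81 that leaves room for a large difference in either sense. For Prdx6 it was 0.35 (interval 0.09 to 0.61, adjusted p = 0.229) and for Sod2 -0.34 (interval -0.65 to -0.03, adjusted p = 0.366). APAP and DCLF did not differ in any of the 8 either (0.0709% of all probe sets did). Here 1 gene, Prdx6, had an unadjusted limma p under 0.05 (0.33, adjusted p = 0.313), as did 12.4% of all probe sets. An ordinary linear-model contrast, which the study did not run, called 0 of the 8 genes in each of these comparisons with an unadjusted p under 0.01.

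Glutathione peroxidases draw on a supply of reduced glutathione. Of 16 genes of glutathione synthesis and recycling, 4 rose and 0 fell in APAP livers (median 0.19), against 34 higher and 12 lower of all 14217 genes. Gsr, which returns oxidised glutathione to the form glutathione peroxidases use, read 11.42, 11.63 and 11.30 in APAP livers, against 10.66, 10.77 and 10.46 in corn oil livers, and rose by 0.82 (SE 0.112, adjusted p = 0.0446). Gclc and Gclm, the catalytic and the modifier subunit of the enzyme that limits glutathione synthesis, rose by 0.96 (SE 0.126) and 1.02 (SE 0.103), and Me1, which makes NADPH, by 1.03 (SE 0.113). In ANIT livers 1 of the 16 rose and 2 fell (median 0.09, against 546 higher and 480 lower of all genes): Pgd, of the NADPH-making pentose phosphate pathway, rose by 1.09 (SE 0.105), while Gclc fell by 0.72 (SE 0.0903) and Chac2, which breaks glutathione down, by 0.81 (SE 0.174). In MDA livers 1 fell and 0 rose (median 0.08, against 697 higher and 601 lower of all genes), namely Chac2 (-1.41, SE 0.168). In DCLF livers 0 passed. Tested as a difference, the change was lower with ANIT than with APAP by 1.68 for Gclc (SE 0.162, adjusted p = 0.000143) and by 1.59 for Gclm (SE 0.148, adjusted p = 0.00012), whereas that of Gpx2 was higher. Compound and in-life study cannot be told apart in these differences.

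A further list, which does not hold the 8 genes, was NRF2 and its further targets. Over all 14217 genes, 546 were called higher with ANIT, 697 with MDA, 34 with APAP and 0 with DCLF. Of the 14 measured on this list, 6 were called higher in ANIT livers (median 0.44) and 10 in MDA livers (0.94). In APAP livers 7 were called higher (1.39) and in DCLF livers 0 (-0.05), with 0 lower for any compound. In a fit over all groups the ANIT count was 6 with all arrays and 4 without the 3 of lower top level (median 0.11). The efflux pump Abcc3 rose by 2.70 (SE 0.348) with ANIT, 2.69 (SE 0.118) with MDA and 2.87 (SE 0.0932) with APAP. The glutathione transferase Gsta3 rose by 2.38 (SE 0.369), 2.43 (SE 0.226) and 4.35 (SE 0.173), and the quinone reductase Nqo1 by 0.82 (SE 0.141), 1.02 (SE 0.158) and 1.60 (SE 0.0945), in the same order. Akr7a3, an aldehyde reductase, rose by 2.58 (SE 0.0725) with APAP, and its change with ANIT was lower by 2.42 (SE 0.207, adjusted p = 7.24e-05). Osgin1, on the same list, differed by -0.64 with ANIT and -0.435 with MDA without passing (limma adjusted p = 0.185 and 0.061). Gclc and Gclm, counted with the glutathione genes, differed by -0.72 and -0.57 with ANIT. Txnrd1, counted with the thioredoxin genes, differed by -0.31 with ANIT. These lists, like the 8 genes, were chosen with earlier results of the same data known.

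Of 21 genes of the thioredoxin and glutaredoxin system, which recharges many peroxiredoxins, 1 was called lower in ANIT livers (Txnip, an inhibitor of thioredoxin, -0.66, SE 0.0861). With MDA, APAP or DCLF 0 were called. The medians were -0.25 with ANIT, -0.08 with MDA, -0.02 with APAP and -0.10 with DCLF. Among all 14217 genes, 480, 601, 12 and 0 were called lower in that order. Thioredoxin reductase Txnrd1 read 12.59, 13.05 and 12.41 in APAP livers, against 11.90, 11.77 and 12.02 in corn oil livers. The groups were well apart, but the difference of 0.79 (SE 0.159) did not pass (adjusted p = 0.141). Its change was lower with ANIT than with APAP by 1.10 (SE 0.204, adjusted p = 0.00904). Srxn1, which repairs over-oxidised peroxiredoxins, differed by 0.26 with ANIT, 0.36 with MDA, 0.55 with APAP and 0.29 with DCLF, and passed in none of them. Of 11 other peroxidases and dismutases, 1 passed: Sod3, the extracellular superoxide dismutase, read 9.50, 9.60 and 9.74 in MDA livers, against 10.74, 10.75 and 10.39 in ethanol livers, and fell by 1.02 (SE 0.122), the opposite sense to Sod2 in the same livers.

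**Figure D3:**
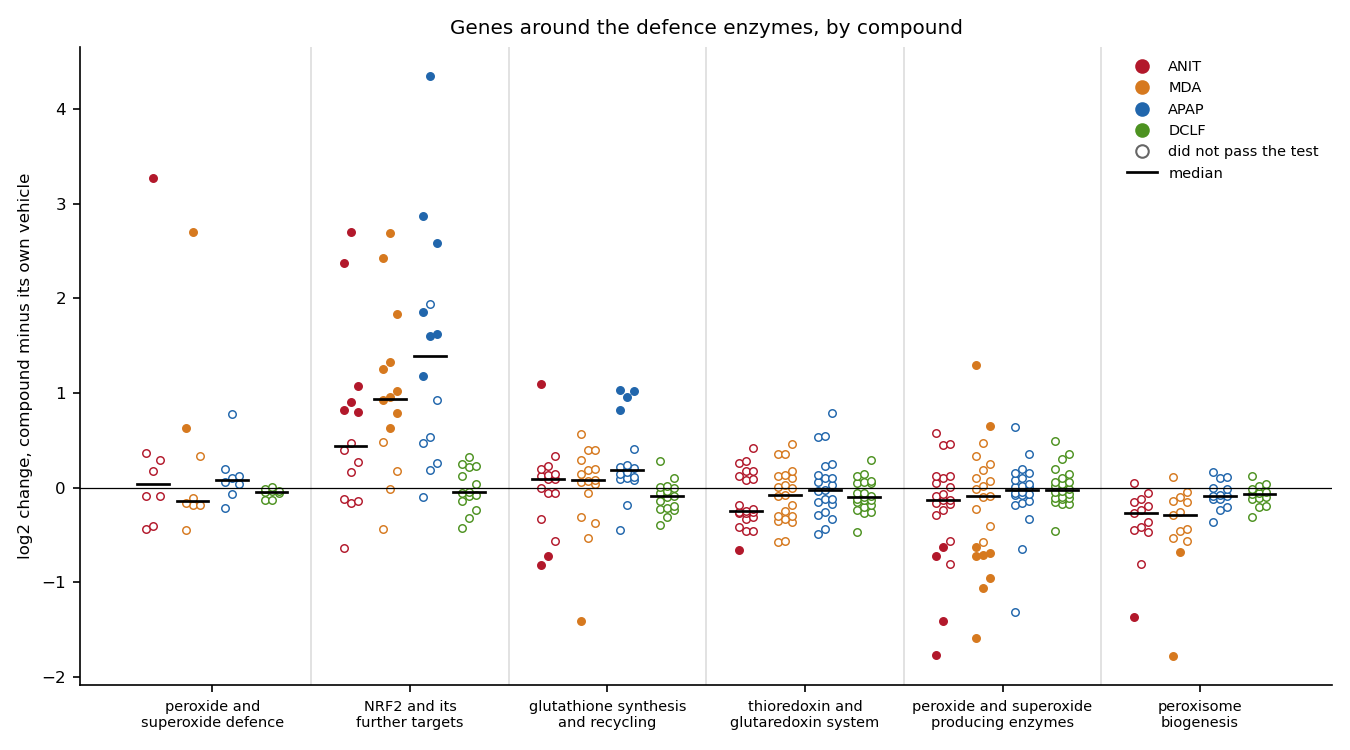
Log2 change of each gene (y axis) for the 8 enzymes and 5 lists around them (x axis), with a colour for each compound and filled points for genes that passed the test. Black lines are medians, and the NRF2 list is highest with APAP (1.39) while the 8 enzymes stay near 0 (0.08).

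A further list held genes whose products make hydrogen peroxide or superoxide. Of 22 measured, 4 fell and 0 rose in ANIT livers (median -0.13), 7 fell and 2 rose in MDA livers (median -0.09) and 0 passed in APAP and DCLF livers. Over all 14217 genes, 480 fell and 546 rose with ANIT, 601 and 697 with MDA, 12 and 34 with APAP and 0 with DCLF. The NADPH oxidase Nox4 fell by 1.77 (SE 0.187) with ANIT and by 1.58 (SE 0.208) with MDA, and the peroxisomal hydroxyacid oxidase Hao2 by 1.41 (SE 0.165) and 1.06 (SE 0.119). Acox2, the oxidase of bile acid precursors, fell by 0.96 (SE 0.196) with MDA. The 2 that rose with MDA, Cyba (1.29, SE 0.13) and Cybb (0.65, SE 0.122), encode the phagocyte oxidase core, and the Cyba change was lower with ANIT than with MDA (-0.84, SE 0.182, adjusted p = 0.0464). Of 13 peroxisome biogenesis genes, beside the same counts over all genes, 1 fell in ANIT livers, 2 in MDA livers and 0 in APAP and DCLF livers. Pex11a, which divides peroxisomes, the home of catalase, read 10.73, 10.87 and 10.72 in ANIT livers, against 12.18, 12.12 and 12.11 in corn oil livers, and fell by 1.36 (SE 0.0773). With MDA it fell by 1.78 (SE 0.191) and Pex7, a peroxisomal import receptor, by 0.68 (SE 0.123).

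The next list held 22 genes of selenoprotein synthesis and other selenoproteins, the class that Gpx1 to Gpx4 belong to. Of these, 2 rose and 1 fell in ANIT livers, 3 rose and 4 fell in MDA livers and 1 rose in APAP livers. In DCLF livers 0 passed, and the medians lay between -0.08 and 0.04. Among all 14217 genes, 546 rose and 480 fell with ANIT, 697 and 601 with MDA, 34 and 12 with APAP and 0 with DCLF. Dio1, the thyroxine deiodinase, fell by 0.88 (SE 0.169) with ANIT and by 1.21 (SE 0.127) with MDA, and Sephs2, which makes the selenium donor, by 1.01 (SE 0.188) with MDA. Selenon, a selenoprotein of the endoplasmic reticulum, rose by 0.77 (SE 0.08) and 1.06 (SE 0.117) with ANIT and MDA. With APAP the gene that rose was Scly, which recovers selenium (0.73, SE 0.0948). Of 9 metallothionein and metal handling genes, 1 fell with ANIT, 2 rose and 1 fell with MDA and 0 passed with APAP or DCLF. The metallothionein Mt2A fell by 1.34 (SE 0.262) with ANIT and rose by 0.998 (SE 0.242) with MDA, and this difference passed its own test (-2.34, SE 0.398, adjusted p = 0.016). Without the 3 arrays of lower top level, in a fit over all groups, the ANIT counts were 1 higher and 3 lower for glutathione synthesis and recycling, 0 higher and 2 lower for the thioredoxin system, 0 higher and 2 lower for the other peroxidases and dismutases, 1 higher and 4 lower for the peroxide and superoxide producing enzymes, 0 higher and 2 lower for peroxisome biogenesis, and 2 higher and 0 lower for the selenoprotein list. The same fit with all arrays gave 1 and 2, 0 and 1, 0 and 0, 0 and 5, 0 and 2, and 2 and 1 in that order.

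The genes most like each enzyme were found by Pearson's r over the 23 samples after subtracting the mean of the own vehicle, as a description, since the samples share their dose groups. For Gpx2 these were Trip13 (r = 0.967), an ATPase of the mitotic checkpoint, Npdc1 (0.951) and the transcription factor Rfx5 (0.950). For Sod2 they were the cell death gene Bcl2l11 (0.951), Arhgap8 (0.948) and the collagen gene Col8a2 (0.939). For Gpx1 the closest was the cytochrome P450 Cyp2d2 (0.944) and for Cat the protease inhibitor gene Serpina3l (0.911), with the sterol exporter Abcg5 next (0.908). The other 4 enzymes had lower closest values, 0.874 for Gpx4 (Spryd7), 0.855 for Gpx3 (Cdkn2d) and Prdx6 (Mrps22), and 0.794 for Sod1 (Slc26a1).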

How the data were processed

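Liver RNA of 23 rats was measured on single-colour Affymetrix arrays. The authors processed the arrays by robust multichip averaging (RMA) in Array Studio and deposited log2 values, with the software version not given in the sources used here. Carbon tetrachloride and sequencing samples were not analysed here. Of 31099 probe sets, 57 Affymetrix controls were left out, and no scaling was added. Arrays give no counts, so the number of animals limits the precision.

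Genes were named from the platform annotation. Each compound was compared with its own vehicle in limma 3.58.1 (R 4.3.3), with two-sided tests, only the groups compared in the fit and Benjamini-Hochberg adjustment over 31042 probe sets; n = 3 per group (water 2). The smallest exact permutation p is 0.1 with 3 animals against 3 (0.2 against 2), so none was used. Changes are compound minus vehicle, with SE. The methods' t-test (equal variances) was an alternative, as were other scalings, filters, variance models and leaving out each liver. The script was tested on simulated data.

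The members, gene lists and tests were chosen with earlier results of these data known. Named genes are the members, up to 4 called genes of each list and comparison with the largest change, Ccs, Gsr, Txnrd1 and Srxn1, and the 3 genes most alike to each member. Alb, Krt19, Onecut2, Spp1, Nqo1, Cybb, Osgin1, Apoa1, Slc4a1, Epb42, Ahsp and Rhag were added after their values were seen. Exclusion of 3 arrays with a lower top level and the block for them were also chosen after seeing the data.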

Additional observations from a re-analysis of the deposited data

Results flagged for a closer look

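2 differences between compounds passed their own test. The Gpx2 change was higher with ANIT than with APAP by 2.50 log2 units (SE 0.534, limma adjusted p = 0.019, n = 3 per group), and all 3 ANIT animals lay above all 3 APAP animals. The Sod2 change was higher with MDA than with APAP by 0.60 log2 units (SE 0.133, limma adjusted p = 0.020, n = 3 per group), and all 3 MDA animals lay above all 3 APAP animals. The compounds of each pair were dosed in different in-life studies (ANIT and APAP in different volumes of corn oil, MDA in ethanol), so compound and study cannot be told apart in these differences. The same holds for the differences given above for the listed genes Gclc, Gclm, Txnrd1, Akr7a3, Cyba and Mt2A. Those were not taken without the 3 arrays of lower top level.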

How the results depend on the processing

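Of 32 changes of an enzyme against its vehicle, 27 kept their side of the threshold in all alternatives, and of 32 differences between compounds 28 did; 0 called values changed sign. The methods' t-test with adjusted p called 0 enzymes in every comparison with a vehicle, including ANIT and MDA. For differences between compounds an ordinary linear-model contrast took its place. It also called 0 after adjustment, including ANIT minus APAP and MDA minus APAP. Without the fold threshold 2 enzymes passed for ANIT (Gpx2 and Cat), 2 for ANIT minus APAP (the same 2 genes) and 3 for MDA (Gpx2, Sod2 and Gpx1). For MDA minus APAP, 2 passed with dim probe sets left out and 2 with all groups in the same fit. Leaving out 1 liver at a time gave 1 to 2 enzymes for MDA, 0 to 2 for ANIT minus APAP and 0 to 2 for MDA minus APAP. Without the 3 arrays of lower top level 0 passed for ANIT minus APAP, and the count for ANIT stayed at 1; with array top level as a block both stayed at 1. For single enzymes, the Gpx2 rise ranged from 2.22 to 3.71 with ANIT and from 2.30 to 3.16 with MDA, and the Sod2 rise with MDA from 0.57 to 0.80. Quantile normalization and median centring moved no call. No paired analysis was possible because treated and vehicle livers came from different rats, whose numbering here is that of the sample list only. Whether signals toward the top of the scale (Gpx1, Cat and Sod1) understate a change was not tested.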
